A study of Mus musculus with 18 samples.

Results

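The soleus, a postural muscle of the calf, was compared with the quadriceps, the large extensor of the thigh, in mice with an intact Egln1 gene. The members were the arrays whose titles read Soleus WT and Quadriceps WT, 3 of each, which is 6 of the 18 arrays in the series. All 6 came from tamoxifen-treated mice (3 days of treatment before tissue collection) on a C57BL/6 background that carried a Cre recombinase of skeletal muscle and the EglN1 WT genotype, so Cre, tamoxifen and strain were shared by both muscles. The other arrays were soleus and quadriceps of EglN1 KO mice and hearts from a separate FG-4497 experiment. Each sample was RNA from a homogenised piece of tissue, and the labels used here state neither age nor sex. The Y-linked Eif2s3y read between 9.61 and 9.96 on all 6 arrays and Xist between 4.20 and 4.90. The descriptions give the numbers 2255, 2257 and 2272 once for each muscle. These numbers were read as animals, which the labels do not state, and values of a muscle are listed below in that order. All levels are deposited log2 values, so a difference of 1 is a doubling, and differences are soleus minus quadriceps with the standard error (SE) of the limma fit.

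Skeletal muscle is a mixture of slow fibres, which contract slowly, burn fat and sugar in mitochondria and resist fatigue, and fast fibres, which contract quickly and draw more on glycogen and glycolysis. The fibre types differ in the isoforms of nearly every part of the contractile machine: the myosin motor, the troponin and tropomyosin switch on the thin filament, and the pumps that return calcium to the sarcoplasmic reticulum. Slow myosin is encoded by Myh7, and the fast types IIa, IIx and IIb by Myh2, Myh1 and Myh4. In the mouse the soleus holds mostly slow and IIa fibres, and the quadriceps mostly fast ones.

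Promoter sequences of 6 genes with large differences or with a slow and a fast form are shown first, from RefSeq on build GRCm38.p6, each running 5′ to 3′ from 250 bases before to 50 bases after the annotated transcription start. Tnnc1, Myoz2 and Ldhb were higher in soleus, and Tnnc2, Myh4 and Mstn were lower. Capitals mark matches, on either strand, to 6 motifs: the E-box CANNTG bound by the MyoD family, a loose form of the MEF2 motif, CTA and TAG with any 4 bases between them, the MEF3 motif TCAGGTT, the TATA box TATAAA, the nuclear receptor motif AGGTCA, and the MCAT motif CATTCC bound by Tead factors. The stricter MEF2 site has only A or T at those 4 bases.
Tnnc1, chr14:31208062-31208361, plus strand: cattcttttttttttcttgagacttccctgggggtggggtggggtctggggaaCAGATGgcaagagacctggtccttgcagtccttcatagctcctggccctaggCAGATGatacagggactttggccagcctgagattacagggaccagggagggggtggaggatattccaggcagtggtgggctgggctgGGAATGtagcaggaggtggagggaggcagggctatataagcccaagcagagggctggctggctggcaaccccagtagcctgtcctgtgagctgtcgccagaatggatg
Myoz2, chr3:123034938-123035237, minus strand: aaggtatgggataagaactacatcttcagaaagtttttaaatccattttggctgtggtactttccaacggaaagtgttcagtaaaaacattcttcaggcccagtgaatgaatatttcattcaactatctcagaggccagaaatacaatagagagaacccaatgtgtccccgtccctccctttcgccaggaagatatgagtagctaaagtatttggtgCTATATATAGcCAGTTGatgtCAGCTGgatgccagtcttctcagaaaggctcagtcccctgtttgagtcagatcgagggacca
Ldhb, chr6:142507908-142508207, minus strand: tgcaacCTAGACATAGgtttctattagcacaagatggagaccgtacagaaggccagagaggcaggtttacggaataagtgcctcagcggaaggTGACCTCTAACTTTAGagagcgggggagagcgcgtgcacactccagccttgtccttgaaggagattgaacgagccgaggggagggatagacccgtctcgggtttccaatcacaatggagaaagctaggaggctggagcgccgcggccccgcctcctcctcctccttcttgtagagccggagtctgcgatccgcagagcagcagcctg
Tnnc2, chr2:164779685-164779984, minus strand: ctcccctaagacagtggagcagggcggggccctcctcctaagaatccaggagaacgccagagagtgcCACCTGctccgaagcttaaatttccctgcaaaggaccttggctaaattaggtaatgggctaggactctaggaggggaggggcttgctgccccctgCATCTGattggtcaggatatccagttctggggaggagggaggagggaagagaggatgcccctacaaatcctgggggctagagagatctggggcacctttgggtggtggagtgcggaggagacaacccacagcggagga
Myh4, chr11:67237562-67237861, plus strand: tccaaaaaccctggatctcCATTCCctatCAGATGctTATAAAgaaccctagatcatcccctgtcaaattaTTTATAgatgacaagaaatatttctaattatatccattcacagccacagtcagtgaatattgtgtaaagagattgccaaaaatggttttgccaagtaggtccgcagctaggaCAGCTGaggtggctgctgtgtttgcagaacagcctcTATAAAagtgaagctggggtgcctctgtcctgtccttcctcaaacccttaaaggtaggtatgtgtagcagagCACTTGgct
Mstn, chr1:53061390-53061689, plus strand: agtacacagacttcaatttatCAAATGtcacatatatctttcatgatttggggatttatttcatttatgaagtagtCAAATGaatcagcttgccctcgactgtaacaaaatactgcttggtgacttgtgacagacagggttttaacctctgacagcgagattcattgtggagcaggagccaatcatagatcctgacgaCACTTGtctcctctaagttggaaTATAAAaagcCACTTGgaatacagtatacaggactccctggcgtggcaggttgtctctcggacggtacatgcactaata
The Tnnc1 window held 2 E-boxes and 1 MCAT match, and that of its fast counterpart Tnnc2 held 2 E-boxes. The Myoz2 window held a MEF2 match 33 bases before the start, next to 2 E-boxes. The Ldhb window held 2 matches to the loose MEF2 form, both with G or C among the 4 middle bases. A nuclear receptor match adjoined the second. The Myh4 window held 3 E-boxes, 3 TATA matches and 1 MCAT match, and the Mstn window held 4 E-boxes and 1 TATA match.

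Over many genes each motif was found on both sides of the comparison. An E-box lay in 69.1% of 353 windows of genes higher in soleus by at least 1, in 69.1% of 269 windows of genes lower by at least 1, and in 65.1% of 13433 windows of all genes tested. Matches to the loose MEF2 form lay in 4.25%, 3.72% and 3.34% of these windows, and MEF3 matches in 4.25%, 4.46% and 3.35%. MCAT matches lay in 15.9%, 12.6% and 12.5%, TATA boxes in 11.0%, 8.92% and 7.68%, and nuclear receptor motifs in 12.2%, 13.8% and 13.1%. In all 32851 windows of the table the shares were 72.3% for the E-box, 3.69% for MEF2, 4.07% for MEF3, 14.7% for MCAT, 13.6% for the TATA box and 16.3% for the nuclear receptor motif. These shares are descriptions of the windows, with no test.

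The contrast was broad but mostly shallow. Of 13319 genes tested, limma called 6085 at an adjusted p under 0.05, which is 45.7%. Of these, 2837 (21.3%) were higher in soleus and 3248 (24.4%) lower. The median absolute log2 difference of the called genes was 0.36, and 67.8% of them differed by less than 0.5. A difference of at least 1 was called for 561 genes (4.21%), 307 higher (2.3%) and 254 lower (1.91%). At a difference of at least 2 there were 119 genes, 75 of them higher. The sign was the same in all 3 animals for 6053 of the called genes. The arrays of the muscles did not overlap for 7062 of all genes tested, or 53.0%, so a lack of overlap is common here and says little about a single gene. The volcano plot shows the long arm of slow fibre genes on the soleus side.

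**Figure D1:**
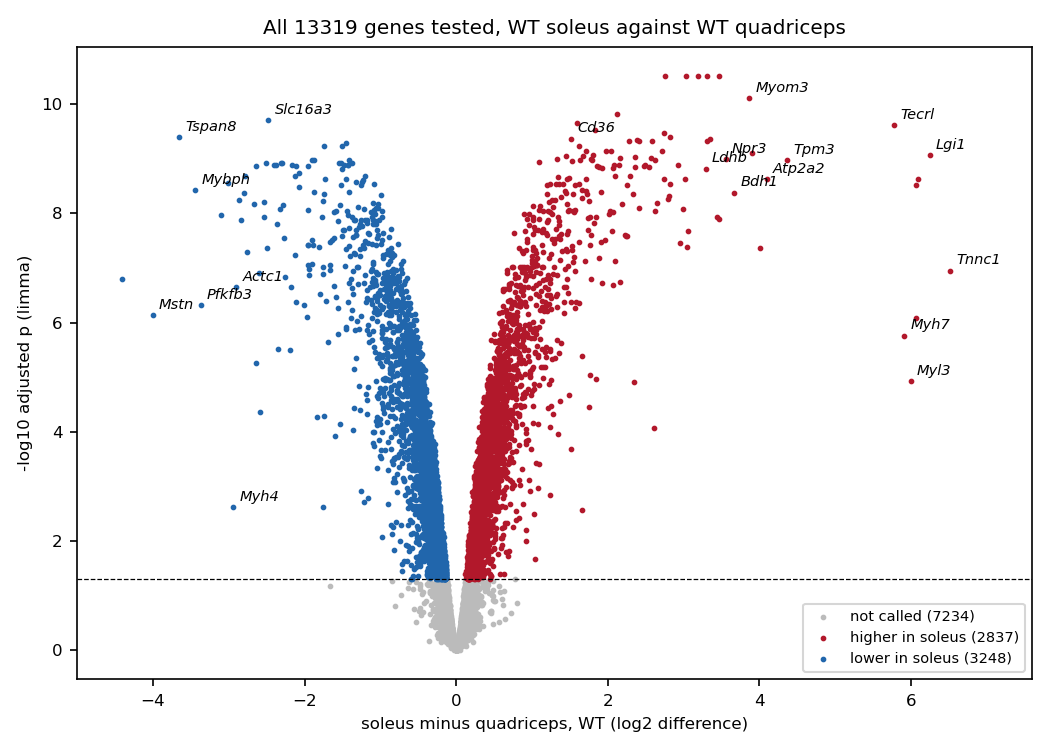
Log2 difference, soleus minus quadriceps in WT mice, on the x axis and -log10 of the limma adjusted p on the y axis for 13319 genes. Red points are the 2837 genes called higher in soleus and blue points the 3248 called lower, the dashed line is the call threshold of 0.05, and Tnnc1, Lgi1 and Myh7 lie far to the right at log2 differences of about 6.

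The slow isoforms of myosin and of the thin filament set the soleus apart. All 10 genes of the list rose in soleus, with a median log2 difference of 5.96, against -0.01 over all genes tested and a share of 45.7% called. Tnnc1, the calcium-binding troponin C of slow and cardiac muscle, read 13.46, 13.38 and 13.46 in soleus and 6.20, 7.75 and 6.80 in quadriceps. The soleus arrays were nearly identical and lay far above all quadriceps arrays, which spread over more than 1 unit. The difference was 6.52 (SE 0.45, limma adjusted p = 1.12e-07), or 91.6-fold. Myh7, the slow myosin heavy chain, read 13.42, 13.30 and 13.47 in soleus against 6.78, 8.60 and 7.08 in quadriceps. Here too the muscles were far apart, and the highest quadriceps value came from animal 2257. The Myh7 difference was 5.91 (SE 0.55, adjusted p = 1.74e-06), 60.2-fold.

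The other slow genes rose by 1.04 to 6.09. Tnni1, the inhibitory troponin subunit, rose by 6.09 (SE 0.27), and Tnnt1, the tropomyosin-binding subunit, by 6.07 (SE 0.28). The slow myosin light chains Myl2 and Myl3 rose by 6.07 (SE 0.52) and 6.00 (SE 0.69). Their larger errors came from the quadriceps arrays of WT and KO mice, which share the fit. Myl3 read 6.46, 9.04 and 7.53 in WT quadriceps and 6.22, 9.97 and 8.33 in KO quadriceps, while the WT soleus arrays read 13.72, 13.59 and 13.70. Tpm3, slow tropomyosin, rose by 4.37 (SE 0.17) on its brightest probe set, and by 2.33 when its 4 probe sets were averaged, so the size for this gene depends on the probe set. The light chain Myl6b rose by 3.31 (SE 0.08), the ancient myosin Myh7b by 1.89 (SE 0.08) and Mybpc1, slow myosin-binding protein C, by 1.04 (SE 0.06).

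The fast list did not mirror this. Of its 10 genes, 7 fell, 1 rose and 2 were not called, with a median of -0.35. Myh4, the myosin of type IIb fibres, read 10.90, 13.31 and 8.99 in soleus against 14.00, 13.98 and 14.06 in quadriceps. All soleus arrays were lower, but they spread over more than 4 units, and the array of animal 2257 came within 1 unit of quadriceps. The fall was -2.95 (SE 0.65, adjusted p = 0.00237). It was -4.07 without the soleus array of animal 2257 and -1.90 without that of animal 2272, and was called in both cases (adjusted p = 2.18e-06 and 0.00402). Mybpc2, fast myosin-binding protein C, showed the same order of soleus arrays at 10.94, 12.09 and 10.31, below 13.77, 13.77 and 13.71 in quadriceps, a fall of -2.64 (SE 0.28).

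Myh2, the myosin of type IIa fibres, went the other way from the rest of the fast list. It read 13.84, 13.77 and 13.85 in soleus and 11.30, 11.96 and 11.99 in quadriceps. The soleus arrays all lay above, by 2.07 on average (SE 0.15, adjusted p = 2.08e-07). Myh1, the myosin of type IIx fibres, read 13.05, 13.10 and 12.96 in soleus and 13.00, 12.99 and 13.16 in quadriceps. The muscles overlapped, and the difference of -0.02 (SE 0.06) was not called (adjusted p = 0.843). The fast light chain Myl1 overlapped as well, with a difference of -0.00 (SE 0.06, adjusted p = 0.997), whereas Mylpf, the fast regulatory light chain, fell by 0.92 (SE 0.07). The fast troponins fell by small but called amounts: Tnni2 by 0.50, Tnnc2 by 0.46 and Tnnt3 by 0.16, and Tpm1 by 0.24. The call of Tnnt3 was lost with the animal as a fixed replicate block on the 6 WT arrays (adjusted p = 0.0505). These genes read between 13.11 and 14.07 on all 6 arrays, near the highest value of any gene on them, 14.54. Whether the upper range of the arrays limits these differences was not tested. Myosin heavy chain genes also have close copies, and how far a probe set reads more than 1 of them was not tested.

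**Figure D2:**
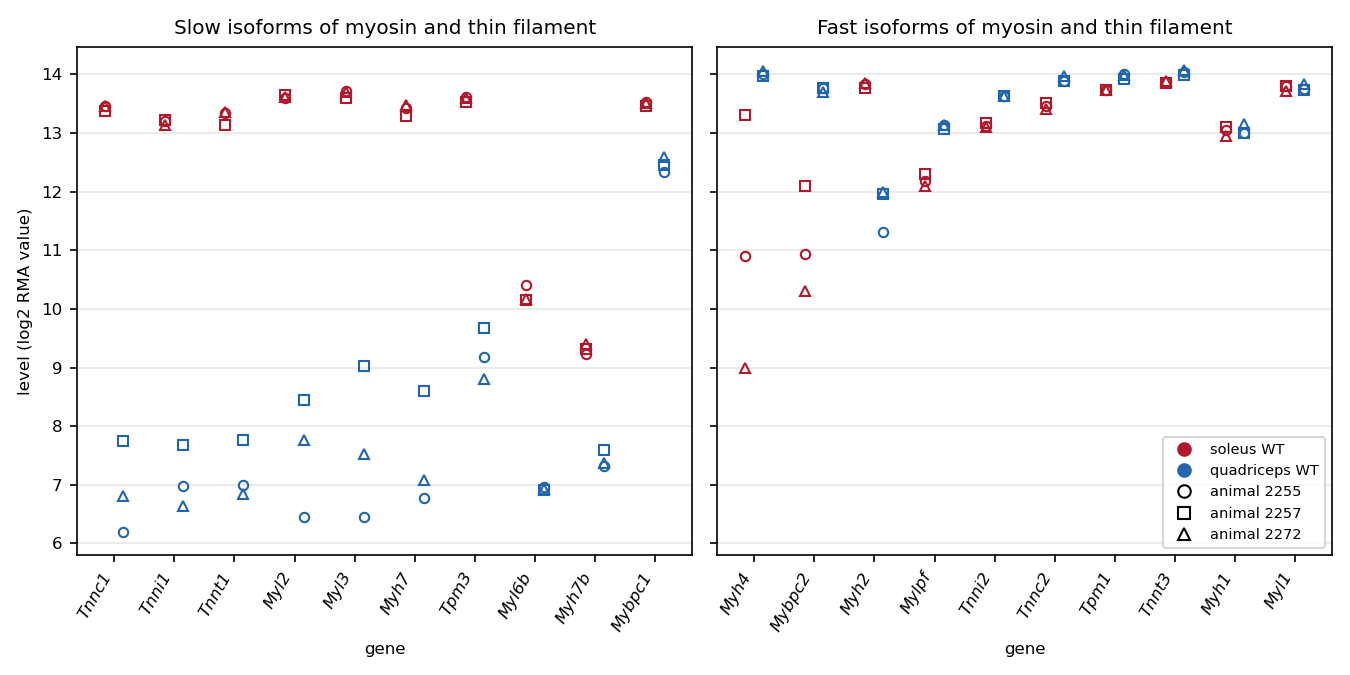
Deposited log2 level (y axis) of the 10 slow and 10 fast genes of myosin and thin filament on each array, red for soleus and blue for quadriceps, with a symbol per animal. Slow genes such as Tnnc1 lie above 13 on all soleus arrays and below 8 on all quadriceps arrays, Myh4 spreads from 8.99 to 13.31 in soleus, and Myh1 and Myl1 overlap.

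Fibre genes spread between animals, to both sides of the group means. The soleus array of animal 2257 was the highest of the 3 soleus arrays for 8 of 10 fast genes, and for 193 of the 254 genes lower in soleus by at least 1. The quadriceps array of the same animal was the highest of its 3 for 8 of 10 slow genes. On the other side, the soleus array of animal 2272 was the lowest of its 3 for 7 of 10 fast genes. The quadriceps array of animal 2255 was the lowest of its 3 for 6 of 10 slow genes. Without both arrays of animal 2257 limma called 5188 genes, and the counts stayed at 10 higher of 10 for the slow list, and at 1 higher and 7 lower of 10 for the fast list.

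Slow and fast partners were also set side by side, within the filament and beyond it. In 16 pairs, chosen after their values were seen and so only described, the first gene rose in all 16, and the second fell in 15, with Myl1 not called. The rise was larger than the fall in 12 pairs and smaller in 4. The second partners Atp2a1 and Ldha read near the top of the arrays in quadriceps. The 4 with the smaller rise were Mybpc1 and Mybpc2, Actn2 and Actn3, Slc16a1 and Slc16a3, and Atp1b1 and Atp1b2. Actn2 and Actn3 encode alpha-actinins, which anchor thin filaments in the Z-disc, and Actn3 is the form of fast fibres. Actn2 rose by 1.49 and Actn3 fell by 2.59.

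**Figure D3:**
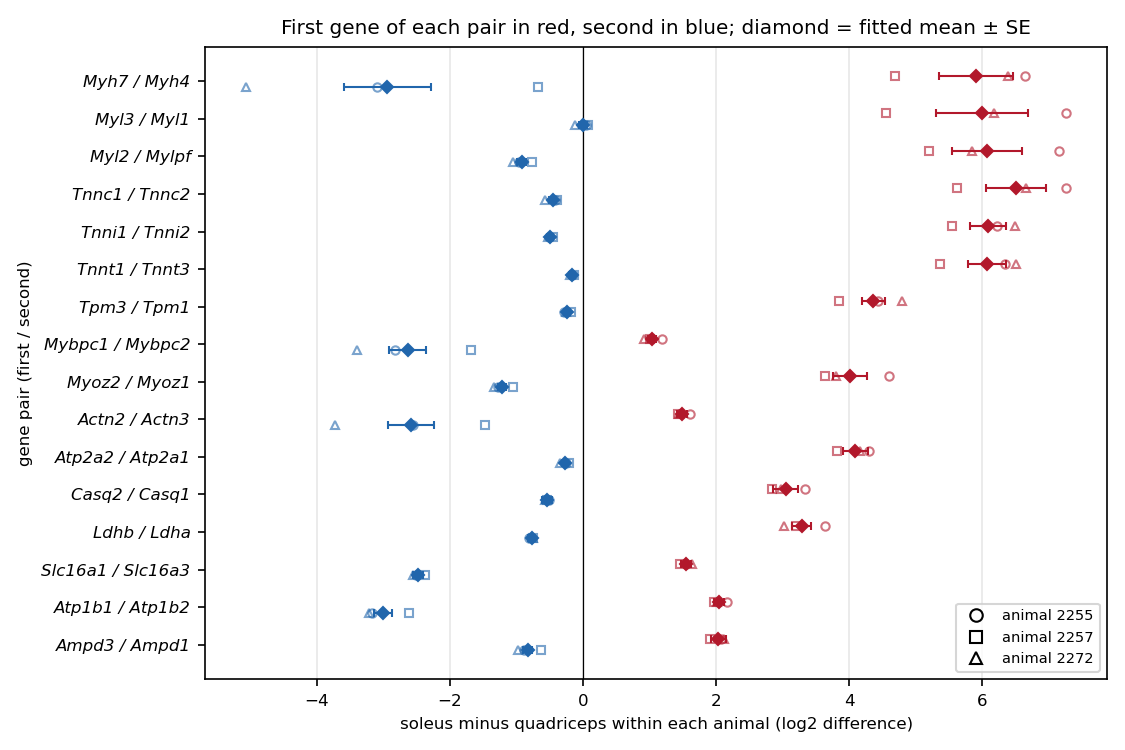
Soleus minus quadriceps log2 difference within each animal (open symbols) and fitted mean with SE (diamonds) for 16 gene pairs, with the first gene of a pair in red and the second in blue. All 16 red means lie right of 0, and the blue means lie left of it except Myl1, at 0; animal 2257 gives the smallest Myh4 and Actn3 differences.

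Genes of the Z-disc and M-band, which hold the filaments in register and sense stretch, differed in both directions: of 25, 15 rose and 6 fell (median 0.46). Myoz2, slow calsarcin, which tethers calcineurin to the Z-disc, read 13.75, 13.72 and 13.71 in soleus against 9.14, 10.08 and 9.91 in quadriceps. With no overlap, the rise was 4.02 (SE 0.25, adjusted p = 4.38e-08), while its fast counterpart Myoz1 fell by 1.22. Csrp3, muscle LIM protein, read 12.62, 12.59 and 12.36 against 8.54, 8.54 and 8.76, a rise of 3.91 (SE 0.15). Myom3, an M-band protein, rose by 3.87 (SE 0.11) with little spread in either muscle. Pdlim1, which binds alpha-actinin, rose by 3.44 (SE 0.19), Smtnl1, a smoothelin-like protein, by 3.35 (SE 0.11), and Ankrd2, a stretch-responsive ankyrin protein, by 2.81 (SE 0.14).

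Calcium handling genes were mostly lower in soleus. Of 26 tested, 18 fell and 5 rose (median -0.52). The calcium pumps divided by type. Atp2a2, the slow and cardiac pump SERCA2, read 13.87, 13.80 and 13.87 in soleus and 9.56, 9.98 and 9.70 in quadriceps. That gap of 4.10 (SE 0.18, adjusted p = 2.4e-09) contrasted with Atp2a1, the fast pump SERCA1, which fell by 0.27 (SE 0.05, adjusted p = 0.000358) between levels of 14.03 to 14.11 and 14.29 to 14.36. Casq2, the cardiac form of the calcium store protein calsequestrin, rose by 3.05 (SE 0.19) and the skeletal form Casq1 fell by 0.54. Pvalb, parvalbumin, a calcium buffer that speeds relaxation of fast fibres, read 12.25, 13.14 and 11.51 in soleus and 14.13, 14.13 and 14.15 in quadriceps. All soleus arrays were lower, again with animal 2257 nearest to quadriceps, and the fall was -1.84 (SE 0.25, adjusted p = 5.38e-05). The myosin light chain kinases Mylk4 and Mylk2 fell by 1.95 and 1.49, and Jph2, a junctophilin that couples the surface membrane to the reticulum, by 1.48.

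Among regulators of fibre type, 12 of 31 rose and 12 fell (median 0.03). Sox6 and Tbx15, transcription factors that favour fast fibres, fell by 1.17 (SE 0.07) and 0.82 (SE 0.08). Maf, a large Maf factor that drives Myh4, read 8.93, 9.35 and 9.06 in soleus and 11.53, 11.45 and 11.51 in quadriceps. It fell by 2.38 (SE 0.10, adjusted p = 1.3e-09), with its relative Mafa at -1.38 and the transcriptional cofactor Eya4 at -1.87. The receptors Esrrg and Esrrb, which promote oxidative genes, rose by 2.42 (SE 0.13) and 2.26 (SE 0.13), and Prox1, a homeobox factor of slow muscle, by 2.22 (SE 0.13). Ppargc1a, the coactivator PGC-1alpha that promotes mitochondrial biogenesis, read 11.76, 11.60 and 11.57 against 10.33, 10.61 and 10.41, a rise of 1.19 (SE 0.12, adjusted p = 2.76e-06).

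Mstn, myostatin, the secreted inhibitor of muscle growth, fell furthest of the named genes. It read 6.55, 8.08 and 5.91 in soleus and 10.95, 10.95 and 10.66 in quadriceps. No array overlapped, quadriceps was tight and soleus was spread, with animal 2257 highest. The fall was -4.00 (SE 0.34, adjusted p = 7.42e-07), or 16.1-fold. Of 25 genes of growth and atrophy, 11 fell and 3 rose (median -0.24), or 56.0% called beside 45.7% of all genes tested. The related ligand Gdf11 fell by 1.30 (SE 0.10), their receptor Acvr2a by 0.84 (SE 0.09) and Igfbp5, which binds insulin-like growth factors, by 1.45 (SE 0.13). Musk, the kinase that organises the neuromuscular junction, rose by 1.42 (SE 0.12).

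Of 18 genes of development and regeneration, 7 rose and 2 fell (median 0.12), and the 50.0% called was near the 45.7% of all genes. Chrna1 and Chrnd, subunits of the acetylcholine receptor, rose by 1.58 (SE 0.13) and 0.92 (SE 0.14), and the adhesion molecule Ncam1 by 1.33 (SE 0.11). The receptor subunits Chrnb1, Chrng and Chrne were not called, at -0.02, 0.01 and 0.02. Myod1, the myogenic factor that is more abundant in fast muscle, fell by 0.83 (SE 0.12). Myh3, embryonic myosin, read 8.55, 9.04 and 8.83 in soleus, while all quadriceps arrays lay below 6.19, the level under which genes were filtered. Its rise is therefore given as at least 2.61, measured to that level. Neonatal myosin Myh8 rose by 0.55 (SE 0.09).

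Genes of fat and mitochondrial metabolism were mostly higher in soleus. Of 34 genes of fatty acid uptake and oxidation, 28 rose and 2 fell (median 0.91). Lpl, the lipase that frees fatty acids from circulating triglycerides, read 12.81, 12.82 and 12.84 in soleus and 10.48, 10.89 and 10.90 in quadriceps, a rise of 2.07 (SE 0.11, adjusted p = 9.41e-09). Cd36, a fatty acid transporter, read 12.77, 12.88 and 12.89 against 11.33 on each quadriceps array, a rise of 1.52 (SE 0.05). Both genes were tight within each muscle. Acadl, Hadhb and Acaa2, enzymes of mitochondrial beta-oxidation, rose by 1.32, 1.27 and 1.26, and the thioesterase Acot2 by 1.39. Bdh1, the mitochondrial enzyme that oxidises the ketone body beta-hydroxybutyrate, rose by 3.67 (SE 0.18).

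In the TCA cycle and pyruvate entry 23 of 29 rose and 2 fell (median 0.35), and in the respiratory chain and ATP synthase 34 of 42 rose and 1 fell (median 0.27). The shifts of these lists were wide in membership and small in size. Idh2, mitochondrial isocitrate dehydrogenase, stood above its list at 2.30 (SE 0.10), from 13.12, 13.19 and 13.14 in soleus and 10.65, 11.03 and 10.88 in quadriceps. Ndufb3, of complex I, rose by 1.20 (SE 0.10) and Cox8a, of cytochrome oxidase, by 0.76 (SE 0.04). Pdk1 and Pdk4, kinases that switch pyruvate dehydrogenase off, rose by 1.20 and 0.65. Pcx, pyruvate carboxylase, went against its list, reading 8.85, 9.26 and 8.61 against 10.91, 10.89 and 10.77, a fall of -1.95 (SE 0.12).

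Glycolysis ran the other way, with 11 of 18 lower and 3 higher (median -0.48). Pfkfb3, whose product fructose-2,6-bisphosphate activates phosphofructokinase, read 7.71, 9.14 and 7.72 in soleus and 11.29, 11.47 and 11.93 in quadriceps. All soleus arrays were lower, and animal 2257 was again highest of them. The fall was -3.37 (SE 0.27, adjusted p = 4.84e-07). Gpd2 and Gpd1, the mitochondrial and cytosolic enzymes of the glycerol phosphate shuttle, fell by 2.84 (SE 0.16) and 2.53 (SE 0.13). The enzymes Pgam2 and Pgk1 fell by 1.07 and 0.87. The 3 genes that rose were Pfkfb2 by 0.65, Pgam1 by 0.41 and Hk2 by 0.21.

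The lactate genes divided by isoform. Ldhb, the heart form of lactate dehydrogenase, read 12.41, 12.24 and 12.40 in soleus and 8.78, 9.04 and 9.37 in quadriceps, a rise of 3.29 (SE 0.14, adjusted p = 1.53e-09). Ldha, the muscle form, fell by 0.77 (SE 0.05) between 13.36 to 13.38 and 14.12 to 14.19. Slc16a3, the transporter MCT4 that exports lactate, fell by 2.48 (SE 0.08), and Slc16a1, MCT1, which mainly imports it in oxidative fibres, rose by 1.54 (SE 0.08). Of 12 genes of lactate and glucose transport, 3 rose and 4 fell (median -0.05), or 58.3% called beside 45.7% of all genes tested. Glycogen genes were lower in 11 of 21 and higher in 6 (median -0.20). The phosphorylase kinase subunits Phkg1, Phkb and Phka1 fell by 2.07, 1.44 and 1.42, while Gbe1, the branching enzyme, rose by 1.38 (SE 0.08).

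High-energy phosphate and purine genes split, with 4 of 11 higher and 6 lower (median -0.28). Ampd1, the AMP deaminase of fast muscle, fell by 0.83 (SE 0.07), and Ampd3 rose by 2.04 (SE 0.11). Ckmt2, mitochondrial creatine kinase, rose by 0.96 (SE 0.05), and Gamt, which makes creatine, fell by 1.60 (SE 0.24). In the list of polyamines and dipeptides 3 of 8 fell and none rose (median -0.04), or 37.5% called beside 45.7% of all genes tested. Smox, spermine oxidase, fell by 2.79 (SE 0.12), Odc1, ornithine decarboxylase, fell by 1.53 (SE 0.08), and Carns1, carnosine synthase, fell by 1.11 (SE 0.08).

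**Figure D4:**
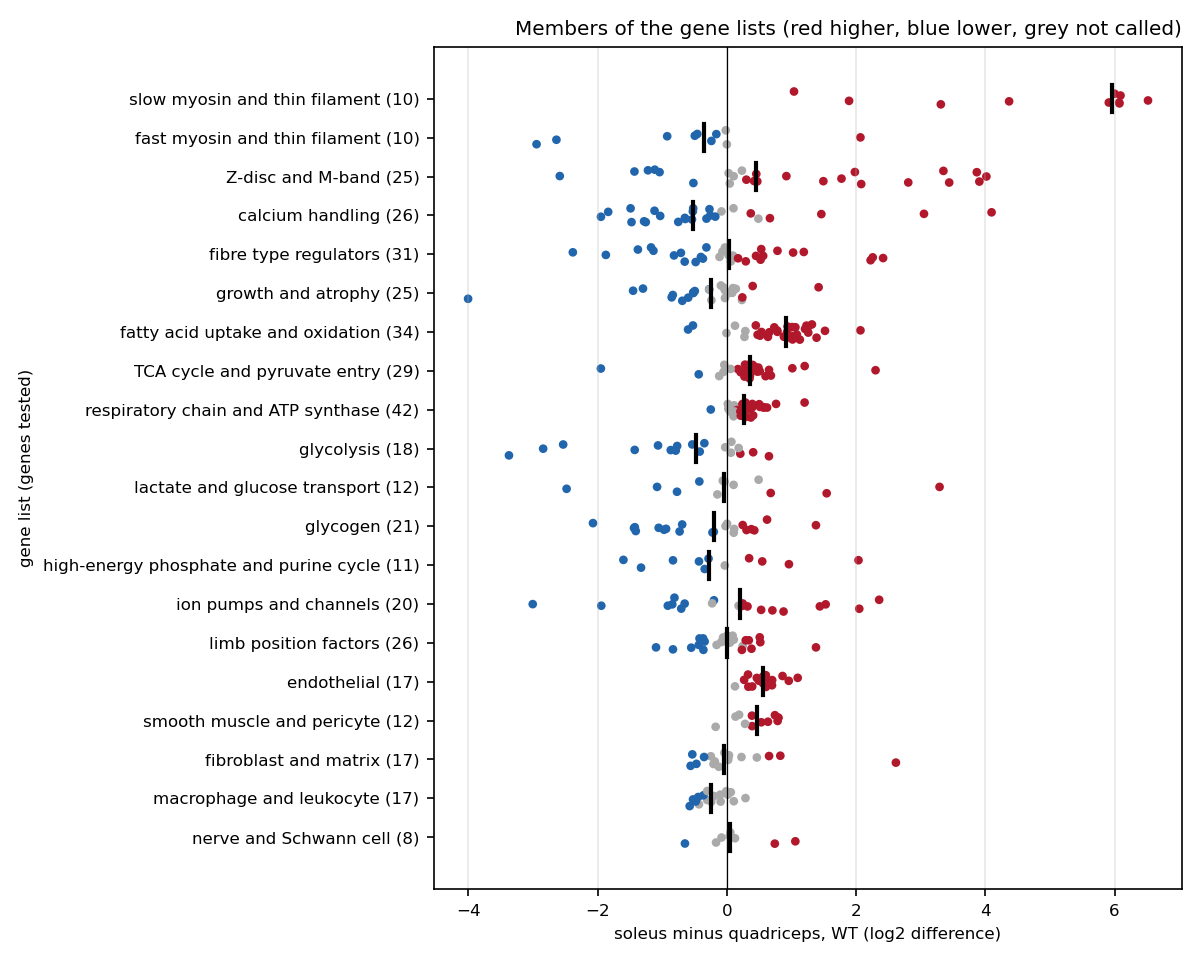
Soleus minus quadriceps log2 difference of each tested member (points, red called higher, blue called lower, grey not called) in 20 gene lists, with the list median as a black bar and the number of tested genes in parentheses. The slow list lies furthest right with a median of 5.96, fatty acid genes cluster near 0.91, and glycolysis and calcium handling lie mostly left of 0.

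Genes of oxygen sensing differed between these muscles in mice with intact EglN1. EglN enzymes hydroxylate the alpha subunits of HIF, which marks them for degradation, and Hif1an encodes a further hydroxylase that blocks HIF activity. Egln3, itself a HIF target, read 11.42, 11.67 and 11.52 in soleus and 9.60, 10.33 and 9.72 in quadriceps, a rise of 1.66 (SE 0.17, adjusted p = 4.14e-06). Egln2 fell, reading 9.43, 9.46 and 9.46 against 10.40, 10.32 and 10.23, by -0.87 (SE 0.05, adjusted p = 4.38e-08). Egln1 rose by 0.31 (SE 0.06), Hif1a by 0.44 (SE 0.05) and Epas1, which encodes HIF-2alpha, by 0.57 (SE 0.07), and Hif1an fell by 0.82 (SE 0.09). Of 9 oxygen sensing genes, 4 rose and 2 fell (median 0.13).

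HIF targets did not move together: 8 of 21 rose and 8 fell (median 0.13). Bnip3, which promotes removal of mitochondria, rose by 0.86 (SE 0.08), while Pfkfb4 fell by 1.43 (SE 0.11) and Ddit4, an inhibitor of mTORC1 signalling, by 1.21 (SE 0.26). The number lower was 4 without the soleus array of animal 2255 and 5 without that of animal 2272. Mb, myoglobin, which stores oxygen in oxidative fibres, read 14.09, 14.12 and 14.14 in soleus and 12.99, 13.27 and 13.22 in quadriceps, a rise of 0.95 (SE 0.08, adjusted p = 6.92e-07). Of 8 genes of oxygen storage and carbonic anhydrases 4 rose and 1, Car14, fell by 0.25 (adjusted p = 0.0413), a call that 9 of 18 alternative analyses did not make. Car3, the carbonic anhydrase of slow muscle, rose by 0.26 (SE 0.07).

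Ion transport genes differed in 18 of 20 cases, 10 higher and 8 lower (median 0.21). The beta subunits of the sodium pump exchanged: Atp1b1 read 12.87, 12.89 and 13.00 in soleus and 10.70, 10.92 and 10.99 in quadriceps, and Atp1b2 read 8.62, 9.17 and 8.57 against 11.80, 11.79 and 11.79. Neither gene overlapped between muscles, and the differences were 2.05 (SE 0.08) and -3.00 (SE 0.14). Fxyd6, a regulator of the same pump, rose by 2.36 (SE 0.10). The potassium channels Kcnn3 and Kcnc4 differed by 1.44 (SE 0.07) and -1.94 (SE 0.14).

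Of 26 genes that mark position along the limb, 7 were higher and 8 lower (median 0.00), or 57.7% called beside 45.7% of all genes tested. Tbx3 read 8.83, 8.82 and 8.94 in the calf muscle and 7.42, 7.47 and 7.56 in the thigh muscle, a rise of 1.38 (SE 0.07). Hoxc10, Hoxc9 and Hoxc8 fell by 1.10 (SE 0.06), 0.55 (SE 0.07) and 0.83 (SE 0.08). Hoxc11 was higher by at least 0.41, since all quadriceps arrays lay below 6.19. Tbx4, a hindlimb factor, rose by 0.52 (SE 0.08). Anatomical origin and fibre type cannot be told apart in this comparison of 1 muscle with another.

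Among stress proteins, 8 of 13 chaperones rose and 2 fell (median 0.41). The small heat shock proteins Hspb7, Hspb1, Hspb6 and Cryab, which protect the sarcomere, rose by 1.93, 0.89, 0.66 and 0.51, and the cochaperone Bag3 by 0.97. Of the other small heat shock proteins, Hspb8 fell by 0.39, and Hspb2 and Hspb3 were not called, at 0.09 and 0.10. Hspa1a, an inducible heat shock protein with a close copy in the genome, rose by 1.45 (SE 0.11). Of 14 antioxidant and metallothionein genes 4 were higher and 4 lower (median -0.05), so 57.1% were called, beside 45.7% of all genes. Cat, catalase, rose by 0.94 (SE 0.06), and Gpx3, the secreted glutathione peroxidase, fell by 1.56 (SE 0.14). Immediate early genes, which respond within minutes to handling and contraction, rose in 4 of 11 and fell in 1 (median -0.00), and the 45.5% called was near the 45.7% of all genes. Btg2 differed by 1.12 (SE 0.12) and Atf3 by 1.08 (SE 0.21). In the circadian clock list 6 of 15 fell and none rose (median -0.17), a share called below the 45.7% of all genes. The number lower was 3 when either array from animal 2255 in soleus or from animal 2257 in quadriceps was left out. The largest of these falls were Tef at -0.53 (SE 0.07) and Hlf at -0.47 (SE 0.09).

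Markers of other cell types in the tissue differed between the muscles in some lists and were called less often than all genes in others. In bulk tissue a difference in the number of cells of a type and in RNA per cell cannot be told apart. Endothelial markers rose in 16 of 17 cases and fell in none (median 0.56, from 0.13 to 1.10). Pecam1, an adhesion molecule of endothelium, read 9.48, 9.33 and 9.67 in soleus and 8.61, 8.60 and 8.68 in quadriceps. All soleus arrays were higher, by 0.86 (SE 0.09, adjusted p = 5.55e-06). Kdr, the main receptor for VEGF, rose by 0.96 (SE 0.09), and Emcn, a sialomucin of capillaries and veins, by 1.10 (SE 0.10). Smooth muscle and pericyte markers rose in 8 of 12 cases and fell in none (median 0.46), with Rgs5, a pericyte gene, at 0.74 (SE 0.06) and Acta2, smooth muscle actin, at 0.80 (SE 0.07). Without both arrays of animal 2257 the counts were 15 of 17 and 8 of 12.

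Other stromal lists were mixed or unsteady. Fibroblast and matrix genes rose in 3 of 17 cases and fell in 4 (median -0.04), or 41.2% called beside 45.7% of all genes tested. Postn, periostin, a matrix protein, read 10.91, 10.49 and 10.52 in soleus and 8.08, 7.97 and 8.02 in quadriceps, a rise of 2.62 (SE 0.38, adjusted p = 8.55e-05). Its SE is that of the fit with the KO arrays and is wide beside these WT values. The falls in this list, such as Col6a3 at -0.56 (adjusted p = 0.0319, and 0.0677 with no replicate block), all lost their calls without the quadriceps array of animal 2255 or without both arrays of animal 2257, and dropped to 1 without the soleus array of animal 2255 and 2 without the quadriceps array of animal 2257. Tendon genes rose in 2 of 11 cases (median 0.38), and this 18.2% was below the share of all genes. They were Scx, the tendon transcription factor, by 0.91 (SE 0.07), and Tnmd, tenomodulin, by 1.04 (SE 0.33), a call lost in 5 of 18 alternative analyses. Macrophage and leukocyte genes fell in 5 of 17 cases (median -0.24), none by more than 0.58, and their 29.4% called was also below that share. All 5 calls were lost when the soleus or quadriceps array of animal 2255, or the quadriceps array of animal 2257, was left out, and 2 were made without either other soleus array.

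The remaining marker lists were short, and their shares called were below the 45.7% of all genes tested. The shares were 33.3% for adipocyte, 37.5% for nerve and Schwann cell, 41.7% for cardiomyocyte and 33.3% for sex-linked genes. Adipocyte markers rose in 3 of 9 cases (median 0.46), with Fabp4, a fatty acid-binding protein shared with endothelium, at 0.78 (SE 0.09). Their median was 0.02 without animal 2257. Of nerve and Schwann cell markers, 2 of 8 rose and 1 fell (median 0.05): Pmp22 by 1.06, Mbp by 0.74, both myelin proteins, and Cnp by -0.65. Of 12 cardiomyocyte markers, 4 rose and 1 fell (median 0.06), led by Myh6, alpha-myosin heavy chain, at 1.52 (SE 0.24), and 2 rose without the quadriceps array of animal 2255 or that of animal 2257. The erythroid gene Alas2 overlapped between the muscles, at 0.11 (SE 0.27). The Y-linked Eif2s3y rose by 0.25 (SE 0.05), the single call among 3 sex-linked genes. The part of these markers in the other results was not tested.

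Beyond the lists, the genes with the largest differences included several with little or no signal in a muscle. Lgi1, a secreted protein best known from inherited epilepsy, read 11.21, 10.94 and 10.97 in soleus, and all quadriceps arrays, at 4.25, 5.30 and 4.82, lay below 6.19. It was higher by at least 4.85, or 28.7-fold (measured difference 6.25, SE 0.24, adjusted p = 8.54e-10). Tecrl, an endoplasmic reticulum protein linked to inherited arrhythmia, read 9.65, 10.09 and 9.82 against 4.29, 3.78 and 4.14, and was higher by at least 3.66, or 12.6-fold. Npr3, the clearance receptor for natriuretic peptides, rose by 3.56 (SE 0.14).

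On the other side, Tspan8, a tetraspanin of the cell surface, read 5.85, 6.37 and 5.69 in soleus and 9.61, 9.69 and 9.58 in quadriceps. The muscles did not overlap, and the measured difference was -3.66 (SE 0.12, adjusted p = 4e-10), with 2 of the 3 soleus arrays below 6.19. Mybph, myosin-binding protein H, fell by 3.44 (SE 0.16), and Actc1, cardiac actin, by 2.90 (SE 0.22). Actc1 read 10.70, 10.68 and 10.85 in soleus and 13.67, 13.74 and 13.52 in quadriceps, so this gene with a cardiac name was the higher in the fast muscle. Other large falls were Cyp4f39, a cytochrome P450, at -3.10, Pla2g7, which inactivates platelet-activating factor, at -2.87, Plcd4, a phospholipase C, at -2.80, Tlcd4 at -2.76, and Flrt1, a transmembrane adhesion protein, at -2.66.

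The array also carries probe sets for microRNA genes, which read the gene's locus rather than the mature molecule. Of 103 tested, 18 were higher and 8 lower, together 25.2%, against 45.7% of all genes. The muscle microRNA genes Mir206 and Mir499, the latter set inside Myh7b, lay below the filter and were picked after their values were seen. Their mature sequences, from RefSeq on GRCm38.p6, are given 5′ to 3′ with the seed, bases 2 to 8, in capitals.
mmu-miR-206-3p, chr1:20679055-20679076, plus strand: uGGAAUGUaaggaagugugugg
mmu-miR-499-5p, chr2:155622893-155622913, plus strand: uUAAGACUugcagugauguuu
Without a filter, Mir206 read 6.61, 6.50 and 5.76 in soleus and 3.12, 3.14 and 3.20 in quadriceps, and Mir499 read 5.81, 6.19 and 5.76 against 4.58, 4.77 and 4.81. The soleus arrays were higher for both. All quadriceps arrays of Mir206, and its soleus array at 5.76, lay below 6.19. Its difference is given as at least 0.10, from the soleus mean to that level. The limma fit without a filter gave adjusted p = 1.3e-06 for the measured difference of 3.13, which rests on values under that level, and not for the 0.10. Mir499 lay below 6.19 on all 6 arrays, so no difference is given.

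The same contrast was measured in the 3 EglN1 KO mice, labelled as having lost the floxed Egln1 gene in muscle after the same tamoxifen treatment. These mice share no array with the WT comparison but stand in the same fit. There limma called 5578 of 13319 genes (41.9%). Of the 6085 genes called in WT mice, 5977 (98.2%) had the same sign in KO mice, and 4702 (77.3%) were called there too. Over all 13319 genes tested, called or not, 11148 had the same sign. Of the 561 genes differing by at least 1, all 561 had the same sign and 556 (99.1%) were called. Tnnc1 differed by 6.25 in KO mice, Myh7 by 5.77 and Mstn by -3.64. Myh4 read 12.53, 12.49 and 12.73 in the KO soleus arrays and 14.09, 14.12 and 14.04 in KO quadriceps, a difference of -1.50 that was not called (adjusted p = 0.0836). A test of the change in the muscle difference between KO and WT mice called 0 of 13319 genes by limma (0.0%), with 851 at an unadjusted p under 0.05.

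**Figure D5:**
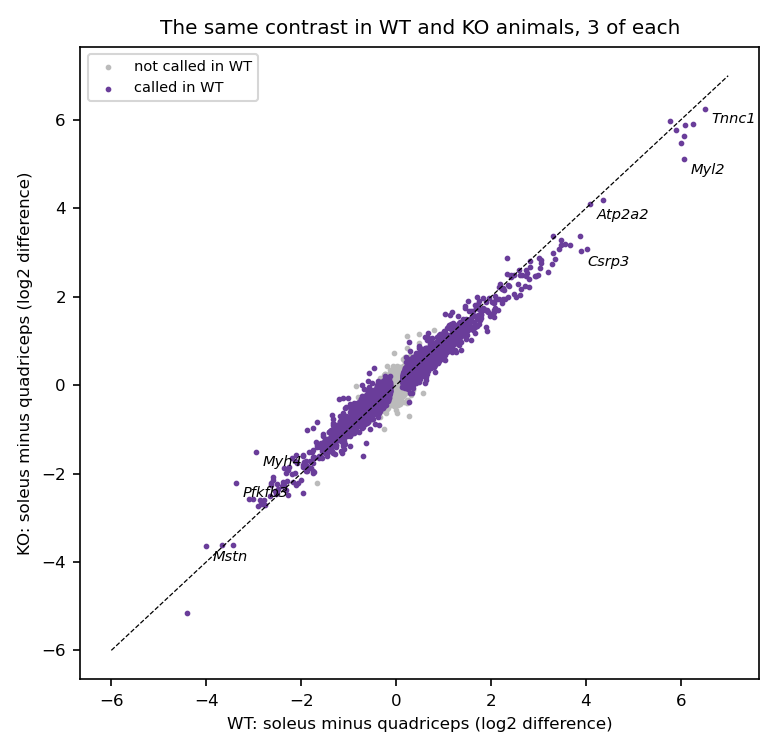
Log2 difference between soleus and quadriceps in WT mice (x axis) and in EglN1 KO mice (y axis) for 13319 genes, purple where called in WT and grey where not, with the line of equal differences dashed. The large differences lie along the line, from Tnnc1 at 6.52 and 6.25 to Mstn at -4.00 and -3.64, and Myh4 lies off it at -2.95 and -1.50.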

How the data were processed

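The authors deposited log2 expression values of Affymetrix whole-transcript arrays, made with RMA per the submitters' processing notes (version not given in the sources used here), from 500 ng of total RNA per the labels' protocols. RMA equalises the distribution of values between arrays, so a difference is relative to the rest of the transcriptome, and it can compress differences at low and at very high signal. Raw image files were not used. Array medians lay between 6.68 and 6.74 and replicates correlated at r from 0.991 to 0.994; no columns were identical. Arrays have no read depth, so their number, 3 per group, limits precision. The smallest exact p for 3 against 3 is 0.1.

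The platform annotation gave a single gene for 21789 of the 35556 probe sets and several genes for 1621, and did not list 12146. Symbols were updated through gene identifiers with a table of GRCm38.p6. The brightest probe set stood for each of 19938 genes, and 13319 genes with a mean of at least 6.19, the 40th percentile of probe sets over the 12 muscle arrays, were tested. The 12 arrays were fitted with limma 3.58.1 in R 4.3.3, with 4 group means and animal number as a random block (consensus correlation 0.17), and adjusted by Benjamini-Hochberg over all genes tested. Same-animal deviations from group means correlated at r = 0.209, 0.200 and 0.0873 in WT and at -0.0008, 0.378 and 0.347 in KO mice, 4 of the 6 above 0.1. Pairs with different numbers ran from -0.422 to 0.141, and those at 0.137 and 0.141 were also above 0.1. Deviations from a group mean sum to 0, so high same-animal values pull the other pairs down. These values therefore cannot settle whether the numbers are animals. The numbers in the titles do not match the animal numbers and were not used. Code was tested on simulated data.

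The muscles, the 34 gene lists (633 genes, 557 tested), the naming rule and the alternative settings were chosen with earlier results of these data known, so list counts are descriptions. Named were the 15 largest rises and 15 largest falls without overlap, leaving out predicted and small RNA genes; all members of the slow and fast lists; 17 fixed genes where tested; and up to 6 called members of each other list with the largest difference, or else the member with the largest. Actn2, Actn3, Myoz1, Casq1, Pfkfb2, Pgam1, Hk2, Hspb2, Hspb3, Hspb8, Chrnb1, Chrng, Chrne, Xist and the microRNA genes were picked after their values were seen. Where all arrays of a muscle lay below 6.19, the difference is given as at least the distance to that level.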

Additional observations from a re-analysis of the deposited data

How the results depend on the processing

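The comparison was repeated under 18 alternative settings, 17 planned and 1, leaving out both arrays of animal 2257, chosen after seeing the data. The count of called genes, 6085, stayed within 1.5 times throughout: 5620 with no replicate block, 5884 with the animal as a fixed replicate block, 5824 with that block on the 6 WT arrays alone, 5958 without a filter, 5323 of 9168 genes at a filter on the 60th percentile, 6651 with array weights, and 5201 to 5647 when an array was left out. The pairing by animal moved no count by over 1.5 times, but calls of Tnnt3, Car14, Nr1d1, Bhlhe40, Nr1d2, Col6a3, Cd74, Cd163, C1qc, Myl4 and Kcnj3 depended on how the block was set. Centring arrays on their medians moved the share of calls that were higher from 46.6% to 43.8%. Of 194 named genes called, 173 kept the call under every setting that tested them, and the other 21 lost it under 1 or more. Some named genes, such as Tecrl and Esrrb, were tested under 17 of the 18 settings. Of 3538 values of named genes, 6 changed sign, none of them of a called gene: with single arrays left out, Myh1 ranged from -0.0543 to 0.0432, Myl1 from -0.0237 to 0.037 and Alas2 from -0.3107 to 0.3713. The sign changed without the soleus array of animal 2272 (0.0311, 0.0323 and -0.0528) or without its quadriceps array. The calls lost most often were Cd74, Bhlhe40, Car14, Nr1d2, C1qc, Myl4 and Kcnj3, all with differences under 0.6; the cause was not tested.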

Other observations

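Some genes lay below the filter on average although all arrays of a single muscle lay above 6.19. Those described here are examples, picked after their values were seen from genes called by limma without a filter, so no p-value is given. Rp1, a microtubule protein known from photoreceptors, read 7.92, 7.71 and 7.23 in soleus against 4.74, 4.61 and 4.38 in quadriceps. It was higher in soleus by at least 1.43, measured to 6.19. Zp2, an egg coat glycoprotein, read 7.07, 6.99 and 7.10 against 5.02, 4.80 and 5.06, and Spinkl read 6.86, 6.55 and 6.72 against 4.86, 4.91 and 4.85. These soleus values were within 2 units of the filter level. Neto2, an accessory protein of glutamate receptors, read 4.97, 5.59 and 4.54 in soleus against 7.63, 7.09 and 6.84 in quadriceps, so quadriceps was higher by at least 0.99. Tbx5, a factor of forelimb and heart, read 6.67, 6.60 and 6.43 in quadriceps and between 5.31 and 5.94 in soleus. Hoxa13, a distal limb factor, read 6.51, 6.69 and 6.37 in soleus and between 5.88 and 6.05 in quadriceps.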
